A study of Homo sapiens with 8 samples.

Results

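The genes described here encode the protein machinery of pre-mRNA splicing and the heterogeneous nuclear ribonucleoproteins (hnRNPs). They were taken from the deposited expression table by name: all entries that begin with SF3A or SF3B, SNRP, SRSF, PRPF, LSM, U2AF or HNRNP, each stem other than SNRP and HNRNP followed by a number. This gave 78 of the 13453 genes, of which 9 are SF3, 11 SNRP, 12 SRSF, 13 PRPF, 12 LSM, 3 U2AF and 18 HNRNP genes. A further 2 matching entries named for several genes at once were left out.

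RNA was measured in Jurkat cells, an established human T-cell acute lymphoblastic leukemia line, in 8 libraries, with 2 for each of 4 conditions. The shRNA set compared cells with a control hairpin (sh-Ctrl) with CBAP knockdown cells (sh-CBAP), both made with lentivirus. The CRISPR set compared CBAP-KO cells expressing GFP (CBAP-KO) with CBAP-KO cells expressing CBAP-GFP (CBAP-reconstituted), so both of its conditions carry the CRISPR/Cas9 knockout of CBAP and differ in the protein put back. Knockout cells were grown from sorted single cells, and nothing in the sources used here says that the paired libraries of a condition came from separate cultures or clones, so p-values measure the spread between these libraries only.

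The spliceosome is built on small nuclear RNAs that are each packed with proteins into a small nuclear ribonucleoprotein (snRNP). Sm proteins form a ring on most of these RNAs and Lsm proteins form the ring of U6, SF3 and U2AF proteins help to select the branch point and the 3′ splice site, and PRPF proteins build and remodel the catalytic complex. SR proteins (SRSF) and hnRNPs bind the transcript itself and promote or repress the use of exons, and in leukemia several of these genes are known targets of mutation.

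Expression was given as FPKM, which scales fragments by transcript length and by the total that mapped, with an unknown depth behind each value. All 78 genes had a mean FPKM of at least 1 and were among the 11427 genes tested, so none was lost to the filter on low values. Their median of mean FPKM was 94.62, against 12.99 over all tested genes. HNRNPA2B1 had the highest mean, 650.5, followed by SRSF2 with 402.6. Between 606 and 1256 genes in a library were listed at 0, which can be a failed estimate, and 6 members had such a value. Since bulk RNA was measured, fewer cells of a type and less RNA per cell cannot be told apart. The remaining 72 members carry the descriptions below unless stated. All 10 T-cell markers examined were present, with a summed FPKM of 1460 to 2386 per library, while markers of B cells, red cells and epithelial cells summed to at most 22.5, 6.56 and 2.53 and no myeloid marker was in the table. CBAP is encoded by TMEM102, which had 4.07 and 4.74 FPKM in sh-Ctrl, 2.69 and 2.89 in sh-CBAP. CBAP-KO and CBAP-reconstituted libraries alike list it at 0 (4 of 4), which leaves the CRISPR set without a check of its labels on this gene. In the sh-CBAP libraries, replicate 2 lay above replicate 1 in 61 of the 72 members, by a median of 0.18 on the log2 scale, against 0.12 over all tested genes with no listed 0.

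More of the splicing genes were called in the CRISPR set (41.0%) than in the shRNA set (6.41%), and there in both directions. The same held over all tested genes, at 49.9% and 12.3%, so the members were called less often in each set. In CBAP-KO cells several genes of the Sm and Lsm rings and of the core machinery were lower, with SF3B5, PRPF19 and LSM7 among those furthest down, while the SR genes SRSF5 and SRSF6 were higher and SRSF8 and SRSF9 lower. In sh-CBAP cells 5 members fell and none rose. HNRNPL, SF3B5, SNRPB and SRSF8 were lower in both sets, and HNRNPUL1 was lower in sh-CBAP cells and higher in CBAP-KO cells. Of all 11427 tested genes, 461 were lower in both sets, and 193 were lower in sh-CBAP and higher in CBAP-KO cells. The 4 and 1 of the 78 members were thus shares near those of all tested genes. These calls were made on log2(FPKM + 1) with limma and Benjamini-Hochberg adjustment over all tested genes, at an adjusted p under 0.05, a scale that understates changes of low genes.

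By count, 22 of the 78 members (28.2%) were lower and 10 (12.8%) higher in CBAP-KO than in CBAP-reconstituted cells. Over all tested genes 25.9% were lower and 23.9% higher, so the share lower was near the background and the share higher below it. The split depended on the scaling: after quantile normalization 26 members were higher and 18 lower, and after median scaling 8 were higher and 28 lower. Of all 11427 tested genes, 2935 were higher and 2861 lower after quantile normalization, and 2580 and 3647 after median scaling. The share of higher calls among all calls of members was thereby 31.2% as deposited, 59.1% after quantile normalization and 22.2% after median scaling. Over all tested genes it was 48%, 50.6% and 41.4%. Without either CBAP-reconstituted library 3 members were higher and 16 lower. In the shRNA set 5 of the 78 (6.41%) were lower and 0 higher, against 8.7% lower and 3.62% higher over all tested genes. An unadjusted p under 0.05 was reached by 21 members (26.9%), against 30.3% of all tested genes. After quantile normalization 2 members were higher and 2 lower in this set, against 845 higher and 830 lower of all 11427 tested genes. The shRNA-set counts and their direction also depended on which sh-CBAP library was left out. Replicate 2 of sh-CBAP lay above replicate 1 in 61 of the 72 members and in 7606 of 10542 tested genes with no listed 0. Counts over all tested genes are not given here for the fits that left out a library. Without either CBAP-reconstituted library, which enters only through the shared estimate of the spread, 1 shRNA-set call remained. The median change of all 78 was -0.10 within the shRNA set and -0.05 within the CRISPR set, against -0.06 and 0 over all tested genes. In the CRISPR set 33.3% of the HNRNP, SF3 and SRSF genes were called, 45.45% of SNRP, 46.15% of PRPF and 50% of LSM genes. The share was 66.7% for the 3 U2AF genes, against 49.9% of all tested genes.

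**Figure D1:**
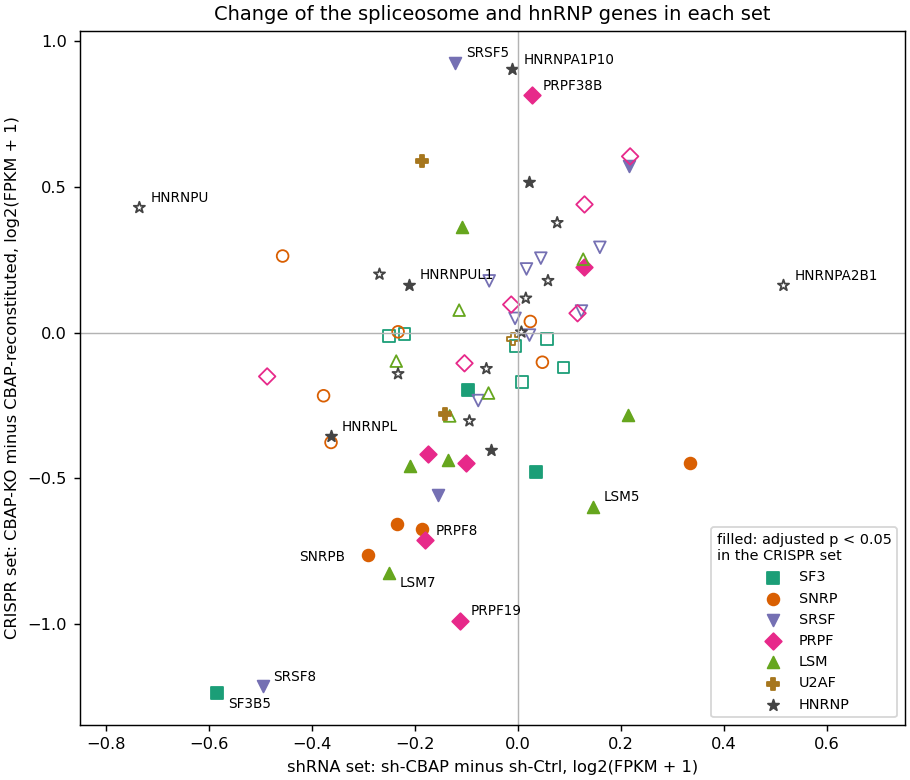
Change of the 72 members with no listed 0, as the difference in log2(FPKM + 1), with the shRNA set on the x axis and the CRISPR set on the y axis, coloured by family, with filled points past an adjusted p of 0.05 in the CRISPR set. SF3B5 and SRSF8 lie furthest down, at -1.24 and -1.21 on the y axis, and SRSF5 furthest up, at 0.92.

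SF3B5 (chromosome 6, 144416021 to 144416710, minus strand of GRCh37) encodes a small subunit of the SF3b complex, which sits on the branch point within the U2 snRNP. It showed the largest decrease of any member with no listed 0 in the CRISPR set. Its FPKM was 181 and 167 in sh-Ctrl and 114 and 118 in sh-CBAP libraries. It was 208 and 201 in CBAP-reconstituted and 89.8 and 82.7 in CBAP-KO libraries. The deficient libraries were thus below the expressing ones in each set, without overlap. The log2 fold change was -0.58 (SE 0.066, adjusted p = 0.00856) for sh-CBAP cells and -1.24 (SE 0.066, adjusted p = 9.66e-05) for CBAP-KO cells. Both calls were kept in all 8 fits that left out 1 library, and the decrease was larger in the CRISPR set (difference 0.65, adjusted p = 0.00515).

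SNRPB (chromosome 20, 2442280 to 2451499, minus strand), which encodes the SmB/B′ proteins of the Sm ring and was the highest SNRP gene with a mean of 299.6 FPKM, fell in both sets. It had 333 and 335 FPKM in sh-Ctrl against 272 and 273 in sh-CBAP libraries, and 380 and 366 in CBAP-reconstituted against 216 and 223 in CBAP-KO libraries. The libraries of a condition differed by far less than the conditions did. The log2 fold changes were -0.29 (SE 0.044, adjusted p = 0.0173) and -0.76 (SE 0.044, adjusted p = 0.000128), and they differed between the sets (0.47, adjusted p = 0.00404). The shRNA-set call was lost without either CBAP-reconstituted library (adjusted p = 0.0642 and 0.0647) and without either CBAP-KO library (0.0507 and 0.0505), and after quantile normalization (-0.19, adjusted p = 0.0734).

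HNRNPL (chromosome 19, 39327010 to 39342987, minus strand), an hnRNP that binds CA-rich RNA and in T cells is known for repressing variable exons of CD45, fell in both sets to a like extent. Its FPKM was 199 and 199 in sh-Ctrl, 162 and 148 in sh-CBAP, 201 and 202 in CBAP-reconstituted and 159 and 156 in CBAP-KO libraries. The log2 fold change was -0.36 in each set (SE 0.055), with adjusted p = 0.0177 for sh-CBAP and 0.00371 for CBAP-KO cells, and the difference between the sets was -0.01 (SE 0.078, adjusted p = 0.951). After quantile normalization neither call passed (-0.29, adjusted p = 0.0596, and -0.18, adjusted p = 0.104). The shRNA-set call was also lost without sh-Ctrl replicate 1 or 2 (adjusted p = 0.0554 and 0.0522), without CBAP-reconstituted replicate 1 or 2 (0.0669 and 0.0673) and after median scaling (0.0579).

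SRSF8 (chromosome 11, 94800083 to 94804388, plus strand), an SR gene that arose as a copy of SRSF2, was lower in both sets at a modest level. It had 17.0 and 15.1 FPKM in sh-Ctrl against 9.97 and 12.3 in sh-CBAP libraries, and 32.0 and 33.7 in CBAP-reconstituted against 14.4 and 12.9 in CBAP-KO libraries. The log2 fold changes were -0.50 (SE 0.12, adjusted p = 0.0485) and -1.21 (SE 0.12, adjusted p = 0.000684). The shRNA-set call passed in only 1 of the 8 fits that left out a library, that without sh-CBAP replicate 2 (adjusted p = 0.0216), and in the other fits its adjusted p lay between 0.075 and 0.16. SRSF2 itself had log2 fold changes of 0.02 and -0.01, and reads of copies so alike may have been split between them.

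HNRNPUL1, a relative of HNRNPU, was the member called in opposite directions. It had 129 and 125 FPKM in sh-Ctrl and 110 and 110 in sh-CBAP, but 147 and 150 in CBAP-reconstituted and 165 and 168 in CBAP-KO libraries. The log2 fold change was -0.21 (SE 0.043, adjusted p = 0.0337) for sh-CBAP and 0.16 (SE 0.043, adjusted p = 0.0236) for CBAP-KO cells, and the difference of -0.37 passed the test (adjusted p = 0.00756). The shRNA-set call was lost in 6 of the 8 fits that left out a library (all but those without an sh-CBAP library), with an adjusted p of up to 0.106, and the CRISPR-set call in the 4 without 1 of that set's libraries, with an adjusted p of up to 0.149. After median scaling neither passed (adjusted p = 0.094 and 0.157).

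**Figure D2:**
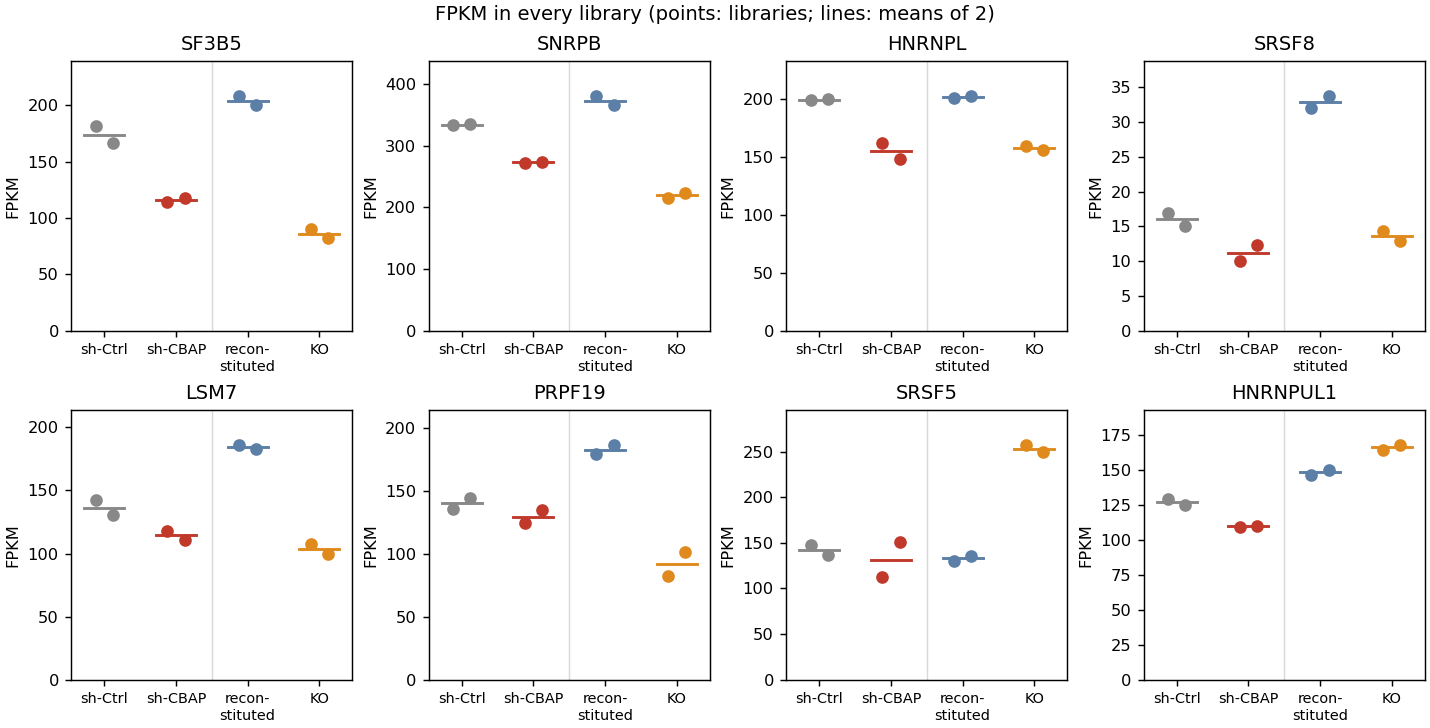
FPKM of 8 members in every library, with points for libraries and lines for the mean of the 2 libraries of a condition, each panel with its own y axis from 0. SF3B5, SNRPB, HNRNPL and SRSF8 are lower in the deficient cells of both sets. LSM7 and PRPF19 each fall more in the CRISPR set than in the shRNA set. SRSF5 is near 250 FPKM in CBAP-KO libraries and at most 151 in the others, and HNRNPUL1 moves in opposite directions.

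The promoters of SF3B5, SNRPB and SRSF5 are shown because these genes are the SF3 gene with the largest decrease in both sets, the most abundant SNRP gene and the SR gene with the largest rise in CBAP-KO cells. Each run gives the 250 bases before the gene's start from RefSeq (GRCh38.p14), 5′ to 3′ on the gene's strand. Capitals mark the exact letters CCGGAAG, a form of the sites that ETS-family transcription factors bind. Other forms of these sites were not searched or marked.
SF3B5, chr6:144095574-144095823, minus strand: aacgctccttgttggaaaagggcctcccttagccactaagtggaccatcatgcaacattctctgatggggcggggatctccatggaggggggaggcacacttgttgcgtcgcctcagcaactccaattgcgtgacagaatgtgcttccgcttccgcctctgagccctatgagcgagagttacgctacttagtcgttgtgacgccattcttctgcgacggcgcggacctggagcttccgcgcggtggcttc
SNRPB, chr20:2470790-2471039, minus strand: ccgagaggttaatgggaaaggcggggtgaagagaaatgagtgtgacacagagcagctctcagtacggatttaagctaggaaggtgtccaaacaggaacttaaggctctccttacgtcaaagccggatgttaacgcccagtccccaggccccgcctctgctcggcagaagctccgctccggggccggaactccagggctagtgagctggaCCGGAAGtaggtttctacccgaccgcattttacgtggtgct
SRSF5, chr14:69766892-69767141, plus strand: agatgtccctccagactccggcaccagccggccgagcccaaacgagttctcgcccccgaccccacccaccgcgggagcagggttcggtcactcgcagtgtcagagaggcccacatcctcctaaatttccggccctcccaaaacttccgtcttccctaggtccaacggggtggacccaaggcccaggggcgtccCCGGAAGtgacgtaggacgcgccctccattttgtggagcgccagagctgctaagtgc
In SNRPB these letters began 41 bases before the start and in SRSF5 57 bases before it, while the window of SF3B5 held none. The windows of HNRNPL and SRSF8, the other members lower in both sets, were also searched and held none. Promoters were matched for 65 of the 78 members. Searched on both strands, CCGGAAG was in 30.8% of these, against 17.2% of the 8093 matched promoters of tested genes and 8.52% of all 35116 promoters in the table. It was in 33.3% of 18 members lower in the CRISPR set, 25% of 8 higher and 28.6% of 35 past no threshold, groups that leave out the 4 matched members with a listed 0 and are too small for a comparison (2 promoters make up the 25%). CACGTG, the E-box that MYC binds, was in 7.69% of the members' promoters and 9.51% of those of tested genes, and does not overlap CCGGAAG in its letters. Other letters were searched as well. GCGCATGC, the NRF1 core, was in 7.69% of the members' promoters and 5.31% of those of tested genes. TATAAA was in 7.69% and 4.6%, and TGACGTCA in 0% and 3.11%.

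Among the SNRP genes, 4 of 11 were lower and 1 higher in CBAP-KO cells, and the 1 higher, SNRPD2, rested on listed zeros. The family's median change was -0.22, and -0.30 over the 10 with no listed 0, and it was below 0 under each scaling tried, though closer to it after quantile normalization and after adjustment for length and GC content (-0.07 in both, and -0.11 in both over the 10). SNRPD1, another Sm ring protein, had 80.2 and 79.0 FPKM in CBAP-reconstituted and 49.6 and 49.4 in CBAP-KO libraries, a log2 fold change of -0.67 (SE 0.068, adjusted p = 0.000817). SNRPC, a protein of the U1 snRNP that helps to recognise the 5′ splice site, had 198 and 198 against 125 and 126 FPKM (-0.66, SE 0.13, adjusted p = 0.00785). SNRPE, of the Sm ring, had 14.5 and 13.1 against 8.79 and 10.99 FPKM (-0.45, SE 0.14, adjusted p = 0.0391), a call that was lost in 5 of the 8 fits leaving out a library, those without sh-Ctrl replicate 1 or 2, CBAP-reconstituted replicate 1 or 2 or CBAP-KO replicate 1, with an adjusted p of up to 0.179. The ring was not uniform. SNRPD3 had 169 and 178 against 178 and 178 FPKM, SNRPG had 52.9 and 42.1 against 39.2 and 41.8, and SNRPF had 155 and 131 against 103 and 117, and none of the 3 passed the test. The U1 and U2 snRNP genes SNRPA, SNRPA1 and SNRPB2 had changes of 0.00, 0.26 and -0.10, also short of the threshold. In the shRNA set the family's median change was -0.23, and 1 of the 11, SNRPB, was called.

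Among the LSM genes, 5 of 12 were lower and 1 higher in CBAP-KO cells, with a median change of -0.28 that was below 0 under each scaling and ranged from -0.35 after median scaling to -0.18 after quantile normalization. LSM2 to LSM7, whose proteins belong to the ring on U6, had a median of -0.45, which was -0.23 after quantile normalization and -0.27 after adjustment for length and GC content, and 4 of the 6 were lower under each of these. LSM7 had 186 and 183 FPKM in CBAP-reconstituted and 108 and 99.7 in CBAP-KO libraries (-0.82, SE 0.069, adjusted p = 0.000462), against 142 and 130 in sh-Ctrl and 118 and 111 in sh-CBAP libraries (-0.25, adjusted p = 0.0723). LSM5 had 51.4 and 51.7 against 33.9 and 33.6 FPKM in the CRISPR set (-0.60, SE 0.093, adjusted p = 0.00383) and 38.6 and 37.7 against 38.3 and 46.7 in the shRNA set (0.15, adjusted p = 0.346). Both genes moved differently in the sets (differences of 0.57 and 0.74, adjusted p = 0.00909 and 0.0101). LSM4 and LSM2 were lower by -0.46 and -0.44 (adjusted p = 0.00151 and 0.003), while LSM3 and LSM6 had changes of -0.10 and -0.29 that did not pass. LSM14B, a relative of the mRNA-repressing factor LSM14A and no part of that ring, was the gene that rose, from 29.8 and 30.5 to 38.6 and 39.5 FPKM (0.36, SE 0.074, adjusted p = 0.00994). That call was lost without CBAP-reconstituted replicate 1 or 2 or CBAP-KO replicate 2, with an adjusted p of up to 0.0671. No LSM gene passed in the shRNA set.

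In the SF3 family SF3B5, SF3B14 and SF3A2 were lower in CBAP-KO cells and none of the 9 was higher, but after quantile normalization 3 were higher and 2 lower, and after median scaling 0 were higher and 5 lower. SF3B14 (SF3B6), which contacts the branch point adenosine, had 134 and 149 FPKM in CBAP-reconstituted and 104 and 98.8 in CBAP-KO libraries (-0.48, SE 0.096, adjusted p = 0.00931). That call was lost without CBAP-reconstituted replicate 2 or CBAP-KO replicate 2 (adjusted p of up to 0.064) and after adjustment for length and GC content (0.0572). SF3A2 had 153 and 153 against 134 and 132 FPKM (-0.20, SE 0.057, adjusted p = 0.0318), but after quantile normalization its change was 0.007. After adjustment for length and GC content the change of SF3A2 was -0.003 (adjusted p = 0.982). Without any 1 of the set's libraries it lay between -0.21 and -0.19, and the call was lost. SF3B1, the largest SF3b subunit and the one most often mutated in blood cancers, was nearly level in each set, at 113 and 107 FPKM in sh-Ctrl, 103 and 117 in sh-CBAP, 119 and 120 in CBAP-reconstituted and 117 and 115 in CBAP-KO libraries (-0.01 and -0.05, adjusted p = 0.981 and 0.623). The family's median change of -0.12 in the CRISPR set turned to 0.11 after quantile normalization.

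The U2AF genes went 3 ways in the CRISPR set. U2AF2, the large subunit that binds the polypyrimidine tract, was lower, with 185 and 185 FPKM in CBAP-reconstituted and 150 and 154 in CBAP-KO libraries (-0.28, SE 0.089, adjusted p = 0.044). U2AF1, the small subunit, had 273 and 268 against 260 and 273 FPKM and did not pass (-0.02, adjusted p = 0.867). U2AF1L4, a relative of U2AF1, was higher from a low level, with 5.43 and 6.50 against 9.80 and 9.07 FPKM (0.59, SE 0.19, adjusted p = 0.0493). Neither call held throughout: that of U2AF2 failed without any 1 of the set's libraries (adjusted p of up to 0.158), and that of U2AF1L4 failed in 6 of the 8 fits that left out a library (all but those without an sh-CBAP library, up to 0.213). Both calls also failed after quantile normalization (U2AF2 -0.09, adjusted p = 0.348, and U2AF1L4 0.45, adjusted p = 0.0827). That of U2AF2 failed after adjustment for length and GC content as well (-0.21, adjusted p = 0.103). That of U2AF1L4 failed with either other filter on mean FPKM (adjusted p = 0.0503 and 0.0549). None of the 3 U2AF genes passed in the shRNA set.

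Among the PRPF genes, 4 of 13 were lower and 2 higher in CBAP-KO cells, and the median change of 0.07 turned to -0.03 after adjustment for length and GC content. PRPF19, the ubiquitin ligase that names a complex needed to activate the spliceosome, had 136 and 144 FPKM in sh-Ctrl, 124 and 135 in sh-CBAP, 179 and 186 in CBAP-reconstituted and 82.6 and 101 in CBAP-KO libraries. Its log2 fold change was -0.11 (adjusted p = 0.512) for sh-CBAP and -0.99 (SE 0.10, adjusted p = 0.000966) for CBAP-KO cells, and these differed (0.88, adjusted p = 0.00859). PRPF8, the scaffold of the catalytic core, had 134 and 133 FPKM in CBAP-reconstituted and 80.8 and 81.1 in CBAP-KO libraries (-0.71, SE 0.051, adjusted p = 0.000266). The tri-snRNP proteins PRPF31 and PRPF4 were lower by -0.45 and -0.42 (adjusted p = 0.00626 and 0.00649), the latter with an adjusted p of 0.0501 without CBAP-reconstituted replicate 1. PRPF6, also of the tri-snRNP, was higher, with 33.2 and 34.6 against 39.4 and 40.1 FPKM (0.22, SE 0.048, adjusted p = 0.0118). PRPF38B, a relative of the activation factor PRPF38A, rose from 28.1 and 30.1 to 54.3 and 49.6 FPKM (0.81, SE 0.22, adjusted p = 0.0251). The calls of PRPF6 and PRPF38B failed without any 1 of the set's libraries (adjusted p of up to 0.0938 and 0.116), and that of PRPF6 also after median scaling (0.0558).

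The SR genes had a median change of 0.13 in the CRISPR set, with 2 of 12 higher and 2 lower. The median was above 0 under each scaling, from 0.05 after adjustment for length and GC content to 0.28 after quantile normalization, where 6 were higher and 2 lower. SRSF5, an SR protein that promotes exon inclusion, had 130 and 136 FPKM in CBAP-reconstituted and 257 and 250 in CBAP-KO libraries. In the shRNA set it had 147 and 137 in sh-Ctrl and 112 and 151 in sh-CBAP libraries, which overlap. The log2 fold change was 0.92 (SE 0.14, adjusted p = 0.00323) in the CRISPR set and -0.12 (adjusted p = 0.598) in the shRNA set, a difference of -1.05 (SE 0.19, adjusted p = 0.0119). SRSF6 rose from 94.8 and 98.9 to 145 and 144 FPKM (0.57, SE 0.17, adjusted p = 0.0349), a call that failed in 6 of the 8 fits leaving out a library (all but those without an sh-CBAP library, adjusted p of up to 0.143). SRSF9 fell from 265 and 260 to 173 and 184 FPKM (-0.56, SE 0.053, adjusted p = 0.000666), and SRSF8 is described above. The classical SR genes SRSF1, SRSF2, SRSF3 and SRSF4 had changes between -0.01 and 0.29 and none passed.

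Among the 18 HNRNP genes, 3 were higher and 3 lower in CBAP-KO cells, and the median change was 0.06. Both depended on the scaling, with 10 higher and 1 lower and a median of 0.29 after quantile normalization, and 2 higher and 5 lower and a median of -0.01 after median scaling. HNRNPA1, which represses splice sites, fell from 103 and 101 to 69.4 and 85.2 FPKM (-0.40, SE 0.11, adjusted p = 0.0253). Its near-identical copies HNRNPA1P10, a processed pseudogene, and HNRNPA1L2 rose, the former from 50.1 and 54.0 to 91.8 and 105 FPKM (0.90, SE 0.11, adjusted p = 0.00146) and the latter from 10.7 and 11.2 to 15.96 and 16.14 (0.51, SE 0.11, adjusted p = 0.0122). Reads of these 3 can be assigned to one another, so the split between them is uncertain. Their summed FPKM was 164 and 166 in CBAP-reconstituted and 177 and 206 in CBAP-KO libraries. Without CBAP-KO replicate 1 the call of HNRNPA1 was lost, as it was without CBAP-reconstituted replicate 1 or 2 (adjusted p of up to 0.118) and after quantile normalization (-0.20, adjusted p = 0.2), and that of HNRNPA1L2 was lost without CBAP-reconstituted replicate 1 or 2 or CBAP-KO replicate 2 (up to 0.0729). Of the other calls, the lower HNRNPU-AS1 rested on listed zeros, and HNRNPL and HNRNPUL1 are described above. HNRNPU, a nuclear scaffold and RNA-binding protein, had 239 and 266 FPKM in sh-Ctrl and 133 and 172 in sh-CBAP, but 186 and 189 in CBAP-reconstituted and 205 and 310 in CBAP-KO libraries. Neither change passed (-0.73, adjusted p = 0.0832, and 0.43, adjusted p = 0.15), while their difference did (-1.16, SE 0.30, adjusted p = 0.0339). HNRNPA2B1 owed its spread to sh-CBAP replicate 2, with 1152 FPKM there, 467 in replicate 1 and 497 to 739 in the other libraries.

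**Figure D3:**
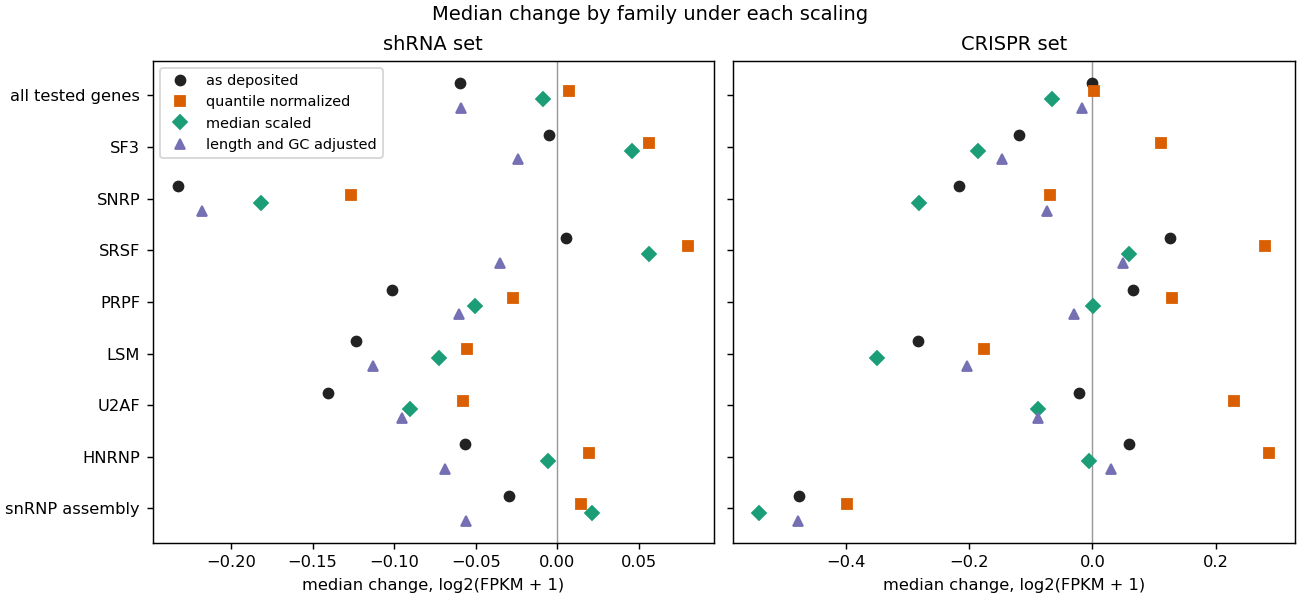
Median change in log2(FPKM + 1) of each family, of the snRNP assembly genes and of all tested genes, for the values as deposited and under 3 other scalings (shRNA set left, CRISPR set right). In the CRISPR set SNRP, LSM and snRNP assembly genes lie below 0 and SRSF genes above 0 under all 4, while the SF3 median runs from -0.19 to 0.11.

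The test of the difference between both sets' changes called 21 of the 78 members (26.9%), against 33.8% of all tested genes. The shRNA-set change was the higher in 14 and the lower in 7 of these. Those with the larger decrease in CBAP-KO cells included SF3B5, SNRPB, SNRPD1, LSM7, LSM5, PRPF19, PRPF8 and SRSF9, and those with the higher change in CBAP-KO cells included SRSF5, HNRNPA1P10, HNRNPU, HNRNPA3 and HNRNPUL1. Without either CBAP-reconstituted library 9 members passed, and without sh-CBAP replicate 2 36 did.

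Taken as 2 classes, 4 CBAP-deficient against 4 CBAP-expressing libraries, SF3B5 was the member that passed, lower by -0.91 on the log2 scale (SE 0.14, adjusted p = 0.0412) and lower in all 4 deficient libraries. Over all tested genes 0.411% were lower and 0.21% higher. The adjusted p of SF3B5 was above 0.05 in each of the 8 fits that left out a library, from 0.0512 without sh-CBAP replicate 1 to 0.19 without CBAP-reconstituted replicate 1, and was 0.0572 after median scaling. By an unadjusted p under 0.05, 17 of the 78 (21.8%) differed, against 21.0% of all tested genes. With the set as a covariate, 9 of the 78 members were lower and 0 higher, against 8.46% and 3.82% of all tested genes. The 9 were HNRNPL, HNRNPU-AS1, LSM4, LSM7, PRPF8, SF3B5, SNRPB, SNRPD1 and SRSF8. Of these, HNRNPU-AS1 had listed zeros, and PRPF8 and SNRPD1 lay close to the threshold (adjusted p = 0.04905 and 0.04929).

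The level of most members was alike in the CBAP-expressing cells of both sets. The ratio of mean FPKM in CBAP-reconstituted to sh-Ctrl cells had a median of 1.157 over the 72 members and 1.134 over all tested genes with no listed 0, and 66 of the 72 lay between 0.5 and 2. Below 0.5 lay 6.94% of the members and 5.34% of all those genes, and above 2 lay 1.39% and 3.44%, so the members were near the background in this. The exceptions below were SRSF10, LSM12, HNRNPA1 and its 2 copies, and above was SRSF8, at 2.05. SRSF10, an SR protein that represses splicing when dephosphorylated, had 78.9 and 84.3 FPKM in sh-Ctrl and 71.9 and 98.4 in sh-CBAP libraries, but 2.59 and 2.83 in CBAP-reconstituted and 3.63 and 3.23 in CBAP-KO libraries, a ratio of 0.033. LSM12 had 30.7 and 33.4 FPKM in sh-Ctrl against 7.53 and 7.21 in CBAP-reconstituted libraries, a ratio of 0.23. The summed FPKM of HNRNPA1 and its copies was 585 to 655 in the 4 libraries of the shRNA set and 164 to 206 in those of the CRISPR set. SRSF10 and LSM12 passed the test within neither set, and clone, vector and processing of the sets cannot be told apart here.

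**Figure D4:**
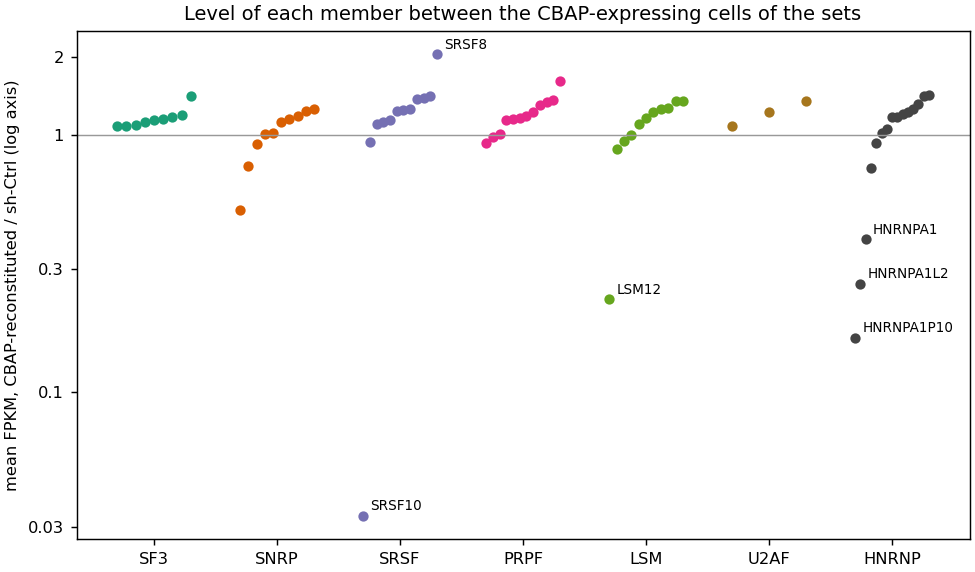
Ratio of the mean FPKM in CBAP-reconstituted to that in sh-Ctrl cells for the 72 members with no listed 0, by family, on a log axis, each point a gene. Most points lie between 0.5 and 2, and SRSF10 stands lowest at 0.033.

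Values of 0 were listed for 6 members, and no fold change is given for them. HNRNPD, an AU-rich element binding protein, was listed at 0 in both sh-CBAP libraries and in CBAP-KO replicate 1, with 341 and 353 FPKM in sh-Ctrl, 460 and 463 in CBAP-reconstituted and 446 in CBAP-KO replicate 2. SNRPD2, of the Sm ring, was listed at 0 in both CBAP-reconstituted libraries and had 185 to 323 FPKM in the others. HNRNPK was listed at 0 in sh-Ctrl replicate 2 alone, with 197 to 264 elsewhere, and PRPF4B in sh-CBAP replicate 1 alone, with 30.7 to 43.7 elsewhere. LSM10 was listed at 0 in CBAP-KO replicate 1, with 37.02 in replicate 2. HNRNPU-AS1 was listed at 0 in sh-CBAP replicate 2 and both CBAP-KO libraries, with 4.46 to 8.70 in the others, and since counting by strand is not stated, its reads and those of HNRNPU cannot be told apart. Each of the 6 had values above 0 in at least 5 of the 8 libraries, and a listed 0 was not read as absence.

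The genes that build snRNPs are a list outside the name rule. Of 17 genes of snRNP assembly, 11 were lower and 0 higher in CBAP-KO cells, with a median change of -0.48 that lay between -0.54 and -0.40 under the 4 scalings. The share called was 64.7%, against 49.9% of all tested genes, of which 25.9% were lower and 23.9% higher. GEMIN4, of the SMN complex that loads Sm proteins onto RNA, was lower in both sets (-0.46, SE 0.068, adjusted p = 0.0167, and -1.01, SE 0.068, adjusted p = 0.000223). Its shRNA-set call was lost without CBAP-reconstituted replicate 1 or 2 or sh-Ctrl replicate 1 (adjusted p = 0.0624, 0.0628 and 0.0581). In the shRNA set 2 of the 17 (11.8%) were lower, against 8.7% of all tested genes, and the median change was -0.03.

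Transcript length differed between the families, and length and GC content both moved with the CRISPR-set change. The median length of the longest transcript was 3080 bp over the 72 members and 3856 bp over tested genes. It was 1986 bp for SNRP, 2226 bp for LSM, 2774 bp for SF3, 3067 bp for U2AF, 3567 bp for PRPF, 3925 bp for HNRNP and 4118 bp for SRSF genes. Spearman's rho between length and the CRISPR-set change was 0.28 across the members and 0.26 across all tested genes, which are not independent replicates and share libraries. Between GC content and the change rho was -0.36 in the CRISPR set and -0.40 in the shRNA set across the members. Across tested genes with no listed 0 it was -0.13 and -0.18. After adjustment for length and GC content the SNRP median was -0.07 and the LSM median -0.20, and 31 members were called in the CRISPR set, 10 higher and 21 lower.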

How the data were processed

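Total RNA of 8 Jurkat libraries was sequenced by the authors on a HiSeq instrument (paired-end reads), aligned to hg19 with TopHat 2 and summarised with cuffdiff. They deposited 1 table of FPKM, 1 column per library, and the labels' processing notes also list CASAVA 1.8, Bowtie and Cufflinks. The scaling of the libraries, the annotation, strand handling and tool versions are not given in the sources used here. FPKM keeps no counts, so depth is unknown and precision rests on 2 libraries per condition. Summed FPKM per library lay between 362082 and 434742.

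Values were put on the log2(FPKM + 1) scale, and all 11427 genes whose mean FPKM reached 1 were fitted with limma 3.58.1 (R 4.3.3; 1 mean per condition, empirical Bayes with trend, Benjamini-Hochberg adjustment over all tested genes, two-sided, threshold 0.05). Contrasts were taken within each set, between the sets' changes, and, in a second model, between the classes. The script was tested on simulated data with 200 genes changed in the shRNA set. It recovered 64% of changes of 1 and 56% of changes of 0.6 on the log2 scale, and 7 of 127 calls were false. A change that did not pass is therefore not shown to be absent. Alternatives were a pseudocount of 0.1, no filter, a mean FPKM of at least 5, quantile normalization, median scaling, adjustment for transcript length and GC content (GENCODE release 44 on GRCh37, known for 94.5% of tested genes and 98.7% of members), no trend, a replicate block, the set as a covariate, each set fitted alone, listed zeros left out and each library left out in turn. Motifs were searched in the 250 bases before each gene's start in RefSeq's GRCh38.p14 promoters. Figures were drawn with matplotlib 3.10.9.

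The members and all lists were chosen with earlier results of these data known, so no list was tested as a set. The genes named were, by rule, the 2 members of each family with the largest called change in each set, the highest member of each family, and those called in both sets or over both classes, 20 in all. The other members described, and the pathway genes (the largest called change of each list in each set), were chosen after their values were seen. Values of 1 member that enters the counts are not reported here.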

Additional observations from a re-analysis of the deposited data

Results flagged for a closer look

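The change in the shRNA set minus that in the CRISPR set, on the log2 scale, passed the limma test of the difference for 20 members with no listed 0. It was above 0, so that CBAP-KO cells had the lower change, for LSM1 (0.49), LSM2 (0.30), LSM5 (0.74), LSM7 (0.57), PRPF19 (0.88), PRPF8 (0.53), SF3B14 (0.51), SF3B2 (0.21), SF3B5 (0.65), SNRPB (0.47), SNRPD1 (0.49), SNRPE (0.78), SRSF8 (0.72) and SRSF9 (0.40). It was below 0 for HNRNPA1P10 (-0.91), HNRNPA3 (-0.47), HNRNPU (-1.16), HNRNPUL1 (-0.37), LSM14B (-0.47) and SRSF5 (-1.05). Of the pathway genes named, the difference passed for SNRNP25 (0.58), DHX16 (0.43), CWC15 (0.65), GEMIN4 (0.55), RNPS1 (1.26), SNRNP70 (-0.50), ACIN1 (-0.56) and PTBP2 (-0.98).

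A single library stood apart from the other 3 of its class, by Dixon's criterion at the 95% level, in 6 of 162 groups of 4 libraries. About 8.1 would be expected if the 4 libraries of a group came from a single population. Each class joins conditions of both sets, which can differ in level, so the counts of 6 and 8.1 cannot be compared. In 4 of the 6 groups the library was sh-CBAP replicate 1. It had 40.3 FPKM for PRPF38A, 102.7 for SF3B1, 134.5 for SNRPD3 and 148.3 for SRSF3, below the other deficient libraries. The others were PRPF18 at 44.4 FPKM in CBAP-KO replicate 2 and PRPF6 at 39.4 in CBAP-KO replicate 1.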

How the results depend on the processing

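Precision rests on 2 libraries per condition, depth is unknown, and small changes turn with the scaling. Over the fits that left out 1 library, members called ranged from 1 to 15 in the shRNA set (5 with all libraries), from 19 to 47 in the CRISPR set (32), from 9 to 36 for the difference between the sets (21) and from 0 to 1 over both classes (1). The median change ranged from -0.16 to 0.026 for sh-CBAP and from -0.067 to -0.034 for CBAP-KO cells. In the shRNA set 3 members were called after median scaling, 3 without the trend, 3 with the replicate block and 1 with that set's libraries alone. Over both classes 0 were called after median scaling, 0 with the replicate block and 9 with the set as a covariate. The CRISPR-set median was 0.14 after quantile normalization and -0.11 after median scaling. Quantile normalization turned 7 CRISPR-set changes to above 0: HNRNPA0 (0.14), SF3A1 (0.17), SF3A2 (0.0066), SF3A3 (0.20), SF3B1 (0.20), SRSF2 (0.37) and U2AF1 (0.23). HNRNPH3 ranged from -0.24 (without sh-CBAP replicate 2) to 0.27 in the shRNA set over the fits that left out a library. The causes were not tested. The deviations of same-numbered libraries correlated at 0.15 within the shRNA set and 0.02 within the CRISPR set. With 2 libraries per condition these values cannot exclude that the libraries were paired. With the block 35 members were called in the CRISPR set and 18 for the difference. The limma adjusted p of SF3B5 over both classes went from 0.0412 to 0.124 with the block, and that of SRSF8 in the shRNA set from 0.0485 to 0.0877.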

Other observations

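Outside the name rule, 6 further lists of splicing genes were described in the same way. For comparison, 25.9% of all tested genes were lower and 23.9% higher in CBAP-KO cells, and 8.7% and 3.62% in sh-CBAP cells. Of 17 proteins particular to single snRNPs or the tri-snRNP, 8 were lower and 2 higher in CBAP-KO cells, with a median change of -0.16. After quantile normalization 6 were lower and 6 higher, with a median of 0.06. The lowest called was SNRNP25, a protein of the minor spliceosome (-0.91, SE 0.086, adjusted p = 0.000666), and in the shRNA set SNRNP70, the U1 70K protein, was the 1 called (-0.42, SE 0.061, adjusted p = 0.0163), a call lost without CBAP-reconstituted replicate 1 or 2 (0.0624 and 0.0628). Of 10 tested spliceosomal helicases, 3 were lower and 0 higher, with DHX16 furthest down (-0.62, SE 0.062, adjusted p = 0.00081). Of 15 genes of the Prp19 complex and later steps, 4 were lower and 1 higher, with CWC15 furthest down (-0.51, SE 0.099, adjusted p = 0.00837, and 0.0564 without CBAP-reconstituted replicate 2).

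Of 13 SR protein kinases and SR-like factors, 5 were higher and 3 lower in CBAP-KO cells, and 1 of the 3 lower, CLK2, had listed zeros. The counts were 9 higher and 1 lower after quantile normalization and 4 and 4 after adjustment for length and GC content, and the median change of 0.37 ranged from 0.30 to 0.60 over the scalings. CLK4, a kinase of SR proteins, had the largest called rise (0.87, SE 0.26, adjusted p = 0.038), lost in the 6 fits without an sh-Ctrl, CBAP-reconstituted or CBAP-KO library, at up to 0.142. ACIN1 was the 1 called in the shRNA set (-0.54, SE 0.078, adjusted p = 0.0159), lost without CBAP-reconstituted replicate 1 or 2 (0.0595 and 0.0596). Of 27 other RNA-binding splicing regulators, 6 were higher and 2 lower, with a median change of 0.06. This split was 13 higher and 0 lower after quantile normalization, 7 and 7 after median scaling and 5 and 6 after adjustment for length and GC content, with a median of -0.01 in the latter pair. PTBP2, the relative of PTBP1 best known from neurons, rose most (0.88, SE 0.11, adjusted p = 0.0017), and RBFOX2 was the 1 that rose in the shRNA set (0.42, SE 0.072, adjusted p = 0.0237). That call was lost in 5 of the 8 fits that left out a library, those without sh-Ctrl replicate 2 or any CBAP-reconstituted or CBAP-KO library (adjusted p of up to 0.0771). Of 7 exon junction complex genes, 2 were higher and 2 lower, with RNPS1 furthest down (-1.35, SE 0.14, adjusted p = 0.00096).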
